A study of Rattus norvegicus with 8 samples.

Results

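The genes that encode the proteins of the cytosolic ribosome were examined in whole hippocampi of adrenalectomized rats given vehicle or corticosterone (CORT). Members were the transcripts whose gene symbol is Rpl or Rps followed by a number, with or without a final a, x or y, together with Rplp0, Rplp1, Rplp2 and Rpsa. This rule took 69 of the 16266 transcript rows and 56 of the 13272 gene symbols. It uses names only and no measured value. All 8 rats had lost their adrenal glands, and so their own source of corticosterone, and had taken corticosterone in their drinking fluid during recovery until it was withdrawn before the experiment. Vehicle (0.45% saline, 4 rats, called untreated in the sample titles) or CORT (0.75 mg/mL corticosterone as its 2-hydroxypropyl-β-cyclodextrin complex, 4 rats) was infused through a jugular cannula for 30 min from zeitgeber time (ZT) 2, that is 2 h after lights on, and hippocampi were taken 2 h after the infusion began. The labels give ZT 2, Sprague-Dawley rats and an age of 3 to 4 months, whereas the study's methods name male Lister hooded rats of a younger age.

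The ribosome joins amino acids in the order set by an mRNA. Its small subunit reads the message, its large subunit forms the peptide bond, and each is built of ribosomal RNA and a set of proteins that are mostly present as a single copy. The mRNAs of these proteins are among the most abundant in any cell, and most belong to the 5′ TOP class (5′ terminal oligopyrimidine): they begin with a C followed by an unbroken run of pyrimidines, through which the mTOR kinase and the RNA-binding protein Larp1 govern their translation and stability together. In brain tissue they are made by neurons and by all glial and vascular cells.

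Expression was given as FPKM, a fragment count corrected for the length of the transcript and the size of the library, so levels can be set side by side between genes per length. The authors' deposited table holds 1 FPKM value for each group and no value for a single rat. No spread between rats, no test and no depth per library could therefore be obtained, and each difference below compares 2 group values with no replicate check. A difference is given as the log2 ratio of the CORT over the vehicle FPKM. Counts of rows past a fold of 1.2, 1.1 or past 1 are descriptions. The counts over all members, and over members at a given level, are set beside the same share over all rows of the table.

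The start of a transcript that shows the 5′ TOP run was looked up first, because it is what these genes are known to share and the rule did not use it. RefSeq promoters of the GRCr8 assembly, which is not the build of the expression data, were found for 43 of the 56 symbols. A C followed by at least 4 pyrimidines stood exactly at the annotated start, on the transcribed strand, in 17 of the 43, or 39.5%, and in 2.63% of all 33469 promoters. When the run could begin anywhere from 5 bases before to 10 bases after the start, the shares were 65.1% of the members and 21.7% of all promoters. The following lines show 15 bases before and 15 bases from the start for members named below, so that the 16th base is the annotated start. Capitals mark a run from the first C inside that search window onward, so in Rpl35 the lower-case pyrimidines before the capitals belong to the same unbroken stretch. Where a sequence has no capitals, no such run began in the search window.
Rplp1 (GRCr8 chr8:71290858-71290887, minus strand): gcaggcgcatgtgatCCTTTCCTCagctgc
Rplp0 (GRCr8 chr12:46718376-46718405, minus strand): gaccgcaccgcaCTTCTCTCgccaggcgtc
Rpl35 (GRCr8 chr3:43165907-43165936, minus strand): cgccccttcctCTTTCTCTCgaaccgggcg
Rpl31 (GRCr8 chr9:49143096-49143125, plus strand): ccacaatccctcgcgCCTTTCCTTTCCaac
Rpl23 (GRCr8 chr10:83272170-83272199, minus strand): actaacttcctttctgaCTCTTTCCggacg
Rpl27a (GRCr8 chr1:172974558-172974587, plus strand): cgagacttggtgggCTCCTCCCTCTTTCTT
Rpl41 (GRCr8 chr7:1563483-1563512, minus strand): ggcggctcggaagtgacgacaccaagcacg
Rps16 (GRCr8 chr1:92770643-92770672, plus strand): cctggaaaatcggtcggggtggccccaagc

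These starts are annotations and were not measured here. The run stands at the first base in Rplp1 and Rpl31, spans the start in Rplp0 and Rpl35, begins just past it in Rpl23 and just before it in Rpl27a, and does not begin in the search window of Rpl41 and Rps16.

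Ribosomal protein mRNAs were abundant in both groups. The median FPKM of the member rows was 89.8 in vehicle and 85.5 in CORT, against 9.22 and 9.38 over all rows. Of the 69 rows, 40 were in the top 10% of the table by mean FPKM and 34 had a mean of at least 100 FPKM. The highest was Rpl41, whose product is the smallest protein of the large subunit, at 869 FPKM in vehicle and 809 in CORT. Rpl23, a core large-subunit protein, stood at 479 and 438 FPKM. Rpl35, which lies at the exit of the peptide tunnel, stood at 425 and 397 FPKM. These abundant rows were lower in CORT, with log2 ratios of -0.10 (Rpl41), -0.13 (Rpl23) and -0.10 (Rpl35).

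**Figure D1:**
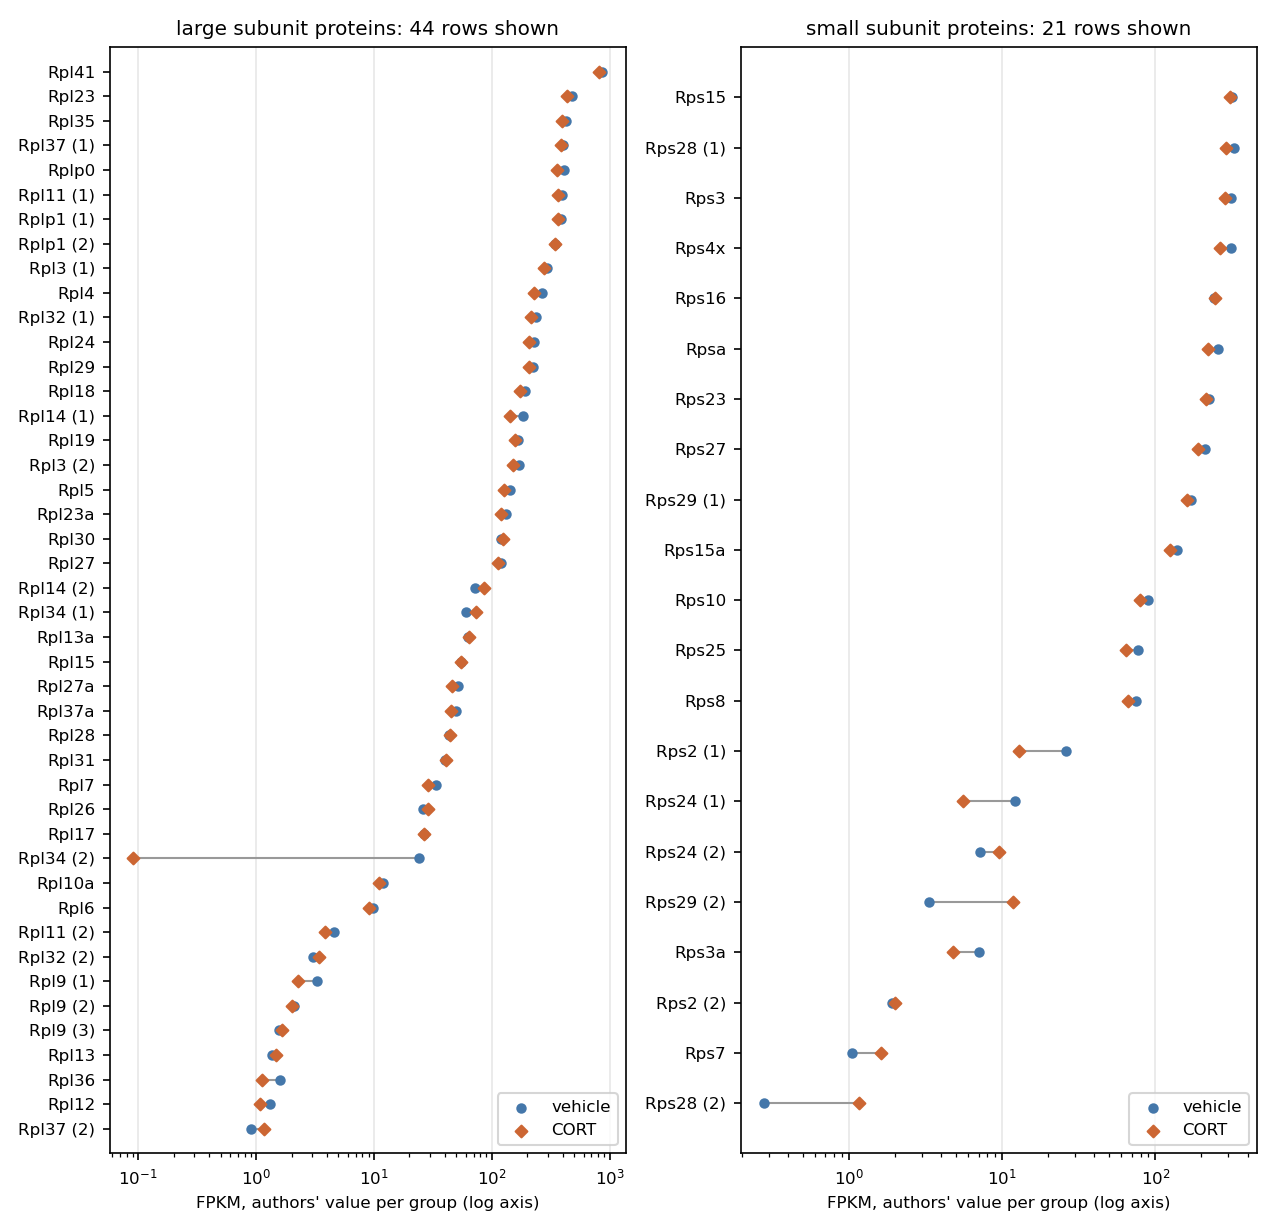
FPKM of 65 of the 69 ribosomal protein rows in vehicle (circles) and CORT (diamonds), as the authors' 1 value per group on a log axis, with large-subunit proteins on the left and small-subunit proteins on the right; numbers in brackets tell rows of the same symbol apart. Among the 31 plotted rows with a mean of at least 100 FPKM, the CORT value lies to the left of the vehicle value in 28.

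The members as a group were slightly lower in CORT, most of them by a small amount. The FPKM summed over the 69 rows was 10708 in vehicle and 9894 in CORT, a log2 ratio of -0.11. The median log2 ratio was -0.12, with quartiles of -0.17 and 0.01, against a median of 0.02 over all rows. In CORT 49 of the 69 rows (71%) were lower, against 45% of all rows. Differences past 1.2-fold were no more common among them than elsewhere: 9 rows (13%) were at least 1.2-fold lower, against 13.3% of all rows, and 6 rows (8.7%) were at least 1.2-fold higher, against 12.3%.

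The share of rows that were lower was largest among the most abundant rows. Of the 51 rows with a mean of at least 10 FPKM, 40 (78.4%) were lower in CORT, against 39.2% of all 7819 such rows, and the medians of the log2 ratio were -0.12 and 0.03. Of these 51, 20 (39.2%) were at least 1.1-fold lower, against 11.8% of all, while 3 (5.88%) were at least 1.2-fold lower, against 4.31% of all, and 1 (1.96%) was at least 1.2-fold higher, against 6.15%. At a mean of at least 100 FPKM, a limit chosen after the values were seen, 31 of 34 rows (91.2%) were lower, against 35.6% of all 924 rows. Between 10 and 100 FPKM, 9 of 17 rows (52.9%) were lower, against 39.7% of all such rows. By count of rows, most of the lean at 10 FPKM or more therefore lay in the 34 rows above. The size of the typical difference was alike, with a median log2 ratio of -0.12 in the 17 rows and -0.12 in the 34. The 17 rows were more scattered, with quartiles of -0.18 and 0.03. Over the 51 rows the rank correlation of log2 ratio and mean FPKM was -0.01. The quartiles of the log2 ratio in these 34 were -0.15 and -0.08. Of the 34, 13 (38.2%) were at least 1.1-fold lower, against 12.8% of all, and 1 (2.94%) at least 1.2-fold lower, against 4.33% of all. The 3 abundant rows that were not lower were Rpl30 (119 FPKM in vehicle and 125 in CORT), Rps16 (240 and 245) and the second row of Rplp1 (344 and 345).

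**Figure D2:**
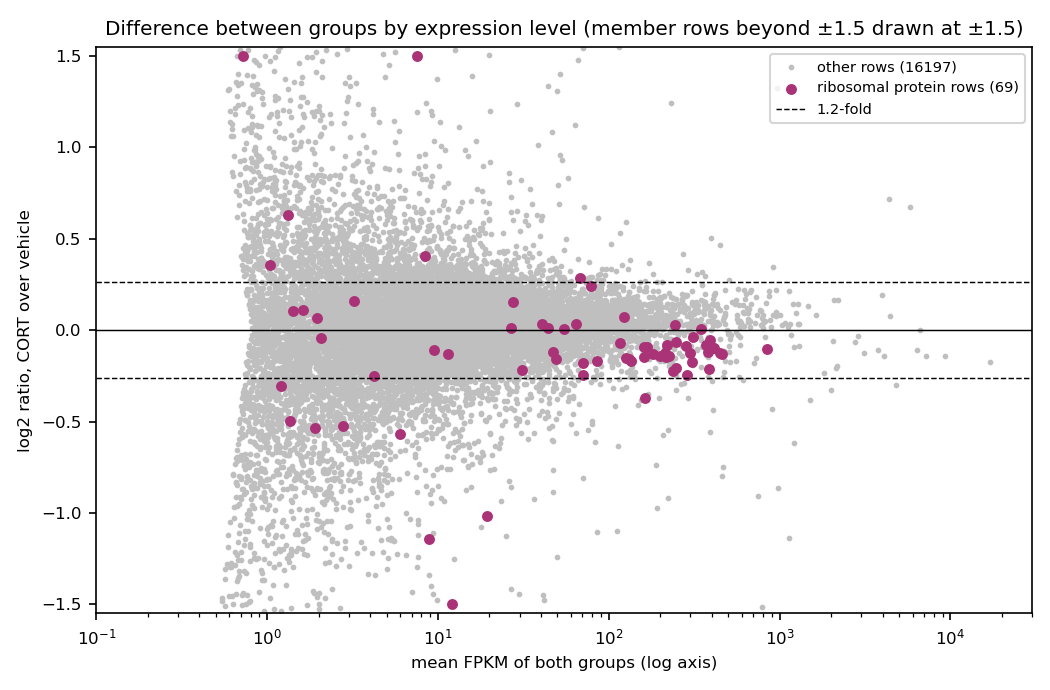
Log2 ratio of CORT over vehicle against mean FPKM (log axis) for the 69 ribosomal protein rows and all other rows, with dashed lines at 1.2-fold; 3 member rows beyond 1.5 in either direction are drawn at 1.5, and 304 other rows lie outside the axes. From 100 FPKM upward the member rows form a narrow band just under 0, while at low FPKM they scatter to both sides.

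Rows under 10 FPKM showed no common direction. There were 18 of them, 9 lower and 9 not (50.3% of all such rows were lower), with log2 ratios from -1.14 to 2.06 and a median of 0.01. Of the 15 member rows past 1.2-fold in either direction, 11 were among these 18. Most of these proteins enter the ribosome in equal numbers, but their mRNA levels per length were far from equal. For 8 symbols, among them Rpl6, Rpl9, Rpl12, Rpl13, Rpl36, Rps3a and Rps7, the summed FPKM averaged under 10, while 34 rows had a mean of at least 100. Ribosomal protein genes have many near-identical processed copies, and how the reads of these genes were shared with their copies was not tested. Of the proteins of the vertebrate ribosome, 80 in all, 24 had no member row, among them Rplp2, Rps6 and Rps27a, and were not analysed here under the rule.

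Among rows of at least 10 FPKM, small-subunit genes were lower as a set by slightly more than large-subunit genes. At a mean of at least 10 FPKM, 15 of 16 small-subunit rows were lower in CORT, with a median log2 ratio of -0.15, and 25 of 35 large-subunit rows, with a median of -0.10. The quartiles were -0.19 and -0.09 for the small subunit and -0.15 and 0.005 for the large, so the ranges overlapped, and the difference was not tested. Summed over all their rows, small-subunit genes stood at 3523 FPKM in vehicle and 3225 in CORT, and large-subunit genes at 7185 and 6669.

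Of the small subunit, Rps4x and Rps25 had the lowest log2 ratios among rows above 50 FPKM. Rps4x stood at 313 FPKM in vehicle and 264 in CORT (log2 ratio -0.24), and Rps25, known for its part in translation from viral internal entry sites, at 76.7 and 64.7 (-0.24). The Rps4x row lies at a locus on chromosome 4 of rn6 (35729627 to 35730599), while RefSeq places the gene of that name on another chromosome. Rpsa, the laminin receptor protein of the small subunit, stood at 256 and 219 FPKM (-0.22).

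Genes for proteins that line the path of the mRNA shared the lean of the members, and Rps2 was by far the lowest of them. Of the 7 rows of this list with a mean of at least 10 FPKM, 7 were lower, with a median log2 ratio of -0.12. Among them were Rps2, Rps3, Rps10, Rps15, Rps23 and the abundant Rps28 row, which is not on the chromosome that RefSeq gives for Rps28. Over all members at that level the median was also -0.12 and 78.4% were lower, against 39.2% of all rows. Rps3, which forms the mRNA entry, stood at 310 FPKM in vehicle and 285 in CORT, and Rps15, near the decoding site, at 316 and 309. Rps2 stood apart at 26.0 and 12.9 FPKM (log2 ratio -1.02), on chromosome 10 (14088318 to 14089979), and a second Rps2 row on chromosome 5 stood at 1.90 and 1.99. The Rps2 pseudogene symbol Rps2-ps2, which the rule leaves out and which was picked after its values were seen, stood at 6.35 and 2.87 FPKM.

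Of the large subunit, Rplp0 and Rpl7 were among the lowest. Rplp0, the base of the stalk that recruits elongation factors, stood at 412 FPKM in vehicle and 355 in CORT (log2 ratio -0.21). Its partner Rplp1 had 2 rows: that on chromosome 8 stood at 383 and 362 FPKM (-0.08), and that on chromosome 17, where RefSeq does not place the gene, at 344 and 345 (0.00). Rpl12, which also binds the stalk base, was near the low end of the table at 1.32 and 1.07 FPKM. Rpl7 stood at 33.4 and 28.7 FPKM (-0.22).

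Both partners of 5S rRNA in the ribosome, which also restrain the p53 regulator Mdm2 when ribosome assembly fails, were lower. Rpl5 stood at 143 FPKM in vehicle and 127 in CORT (log2 ratio -0.17). Rpl11 stood at 396 and 365 (-0.12), with a minor row at 4.61 and 3.88 (-0.25).

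Proteins around the peptide exit tunnel were mixed. Of 7 rows, 4 were lower, with a median of -0.09: Rpl4, whose loop lines the tunnel, stood at 265 FPKM in vehicle and 230 in CORT (log2 ratio -0.21), while Rpl23a (133 and 120), Rpl19 (167 and 156) and Rpl35 differed less. The 3 that were not lower were of moderate level, namely Rpl26 (26.0 and 28.9 FPKM, 0.15), Rpl31 (40.1 and 41.0, 0.03) and Rpl17 (26.5 and 26.7, 0.01). Besides these and Rpl30 (0.07), the largest log2 ratios among rows of at least 10 FPKM were those of Rpl13a (63.2 and 64.6 FPKM, 0.03), Rps16 (0.03) and single isoform rows of Rpl34 and Rpl14.

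Several symbols had a row with an extreme ratio while the sum of their rows had a ratio nearer to that of other members. The summed ratios of Rps24 (-0.36) and Rps2 (-0.91) were still lower than those of most members. There were 12 symbols with more than 1 row, in 6 of them at a single locus and in the other 6 at separate loci. The 2 Rpl34 rows share a locus on chromosome 2 (235850333 to 235852708). One stood at 24.1 FPKM in vehicle and 0.0909 in CORT (log2 ratio -8.05), and the other at 60.8 and 74.1 (0.29). Their sum was 84.9 and 74.2 FPKM, a log2 ratio of -0.19. Rps24 at chromosome 16 had rows at 12.2 and 5.53 FPKM (-1.14) and at 7.20 and 9.53 (0.40), which summed to 19.4 and 15.1 (-0.36). Rpl14 at chromosome 8 had rows at 184 and 142 FPKM (-0.37) and at 72.2 and 85.5 (0.24), which summed to 256 and 227 (-0.17). For these genes the isoforms were higher in opposite groups and the summed value was lower in CORT.

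For Rps28 and Rps29 the row with the large ratio was minor. Rps28 stood at 324 FPKM in vehicle and 288 in CORT on chromosome 16 (log2 ratio -0.17) and at 0.280 and 1.17 on chromosome 7 (2.06). Its sum had a log2 ratio of -0.17. RefSeq places Rps28 on chromosome 7, so the abundant row is not on the chromosome of the gene and the minor row is. Rps29 stood at 172 and 161 FPKM on chromosome 6 (-0.09) and at 3.32 and 11.8 on chromosome 3 (1.83), with a summed ratio of -0.02. When rows were summed by symbol, 46 of the 56 genes (82.1%) were lower in CORT, against 45% of all symbols summed in the same way, with a median log2 ratio of -0.13 and quartiles of -0.18 and -0.06. At least 1.2-fold higher was 1 gene (1.79%), Rps7 at 1.04 and 1.61 FPKM, against 7.84% of all symbols.

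**Figure D3:**
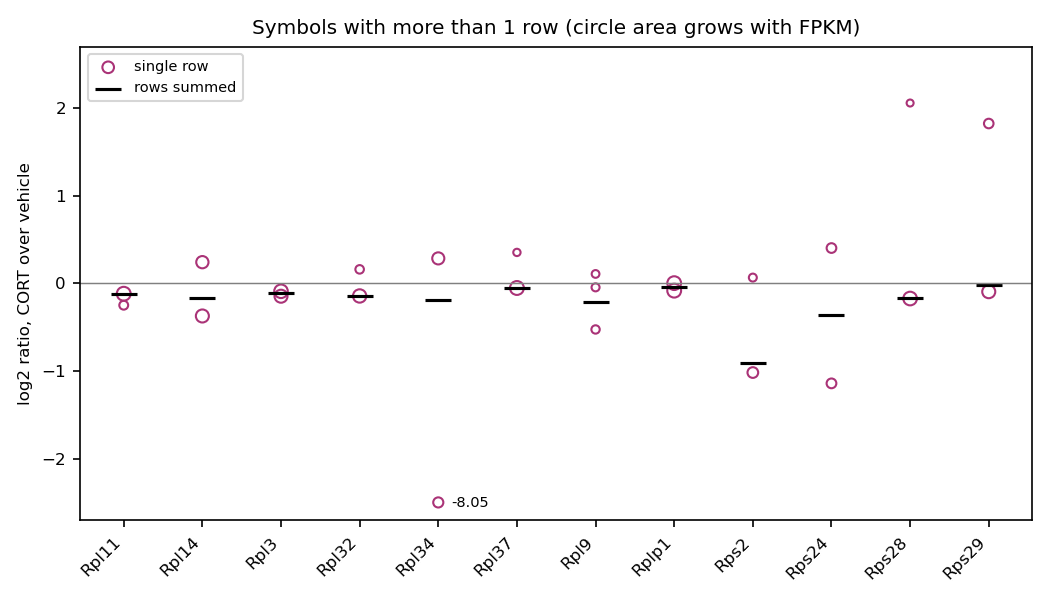
Log2 ratio of CORT over vehicle for the 12 symbols with more than 1 row, with single rows as circles whose area grows with FPKM and the ratio of the summed FPKM as a bar; the Rpl34 row at -8.05 is drawn at the lower edge. Each of the 12 bars lies under 0, from -0.91 for Rps2 to -0.02 for Rps29.

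Rows on a chromosome other than the one RefSeq gives for the symbol numbered 9, from 8 symbols, and for Rpl37, Rps10 and Rps4x no row lay on that chromosome. These rows summed to 1711 FPKM in vehicle and 1590 in CORT, and the other 60 rows to 8997 and 8305, log2 ratios of -0.11 and -0.12. Symbols close to members but outside the rule, such as numbered pseudogenes and paralogs, were alike in direction. Of 13 rows with a mean of at least 10 FPKM, 12 (92.3%) were lower, against 39.2% of all such rows, with a median log2 ratio of -0.11. The authors' processing divides a read among the places it fits, so these rows may not be independent of the members. How far reads were shared was not tested. The most abundant of these, named after their values were seen, were Rps27a-ps1 at 529 FPKM in vehicle and 488 in CORT and Rpl34-ps1 at 494 and 456. Both stood above every member row but that of Rpl41.

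The members that the study lists among its circadian transcripts did not share a direction. Rpl27a stood at 51.6 FPKM in vehicle and 46.3 in CORT (log2 ratio -0.16), Rplp1 was given above, and Rps16 was at a ratio of 0.03.

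Members whose annotated start carries the pyrimidine run did not have the lower ratios. At a mean of at least 10 FPKM, 10 of 14 genes with the run exactly at the start were lower in CORT, with a median log2 ratio of -0.09, and 18 of 21 genes without it, with a median of -0.13. With the wider window the medians were -0.12 for both the 22 genes with and the 13 genes without the run. The glucocorticoid receptor half-site AGAACA, or TGTTCT on the other strand, was found in the window from 250 bases before to 50 bases after the start in 10 of 43 member promoters (23.3%) and in 20.7% of all promoters. Of the genes with this match and at least 10 FPKM, 7 of 7 were lower (median -0.15), and of those without it 21 of 28 (median -0.10). None of these splits was tested.

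Other parts of the translation apparatus did not all lie lower. Of the other mRNAs known to carry a 5′ TOP run, 17 of 19 rows (89.5%) were lower, against 45% of all rows, with a median log2 ratio of -0.09. They include Eef1a1, the main carrier of aminoacyl-tRNA, at 248 FPKM in vehicle and 220 in CORT (-0.17), Tpt1 at 388 and 364 (-0.09), and Pabpc1, the poly(A)-binding protein, at 70.2 and 62.4 (-0.17). At 10 FPKM or more the lowest was Vim, an intermediate filament protein of astrocytes and vessels, at 117 and 54.4 FPKM (-1.11), and the highest Eef2, the translocase, at 436 and 446 (0.03). The main row of Gnb2l1, the older symbol of the ribosomal scaffold Rack1, which the rule leaves out, stood at 175 and 166 FPKM (-0.07). At 10 FPKM or more, the lowest of the listed ribosomal protein relatives outside the rule was a row of Rps27l, a paralog of Rps27, at 12.5 and 9.08 FPKM (-0.47).

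Among initiation factors 25 of 48 rows (52.1%) were lower, against 45% of all rows, with a median log2 ratio of -0.005. At 10 FPKM or more they ranged from -0.40 for a minor Eif6 row (13.9 FPKM in vehicle and 10.5 in CORT) to 0.21 for an Eif3k row (121 and 140). The main Eif6 row stood at 57.5 and 60.3 FPKM (0.07). Of 12 rows of elongation and release factors 7 (58.3%) were lower, with a median of -0.02. The lists overlap: Eef1a1, Eef1b2, Eef1d, Eef1g and Eef2 are also among the other 5′ TOP mRNAs above. So are the initiation factors Pabpc1, Eif4b, Eif3e, Eif3f and Eif3h, and the biogenesis factor Npm1. Eef1a2, the form of Eef1a made by neurons and muscle, stood at 385 and 439 FPKM (0.19), opposite in direction to Eef1a1. Ribosome biogenesis factors had a median of 0.03, with 22 of 52 rows (42.3%) lower. They ranged, at 10 FPKM or more, from -0.40 for that minor Eif6 row, which the list shares, to 0.27 for a row of Nmd3 (9.46 and 11.4 FPKM). Nmd3 encodes the export adaptor of the large subunit, and its other row, at the same locus, stood at 2.31 and 0.167 FPKM (-3.79). Regulators of TOP mRNAs had a median of 0.04, with 6 of 15 rows (40%) lower. Larp1 stood at 25.2 and 28.0 FPKM (0.15) and Mtor at 12.4 and 13.1 (0.07). The mTOR inhibitor Tsc2, in its row with the largest ratio, stood at 10.8 and 13.2 (0.28). Eif4ebp1, the translation repressor that mTOR phosphorylates, stood at 12.5 and 11.3 (-0.15).

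The most similar gene sets by function were level. Of 87 rows of mitochondrial ribosomal proteins, which translate the mRNAs of the mitochondrial genome, 46 (52.9%) were lower in CORT, against 45% of all rows. Their median log2 ratio was -0.0027, and their summed FPKM was 3134 in vehicle and 3145 in CORT. Of 99 rows of nuclear-encoded oxidative phosphorylation genes 35 (35.4%) were lower, with a median of 0.03, and their sum was 22661 and 23306. The distance of the cytosolic set (median -0.12) from these sets rests on 1 value per group and was not tested.

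**Figure D4:**
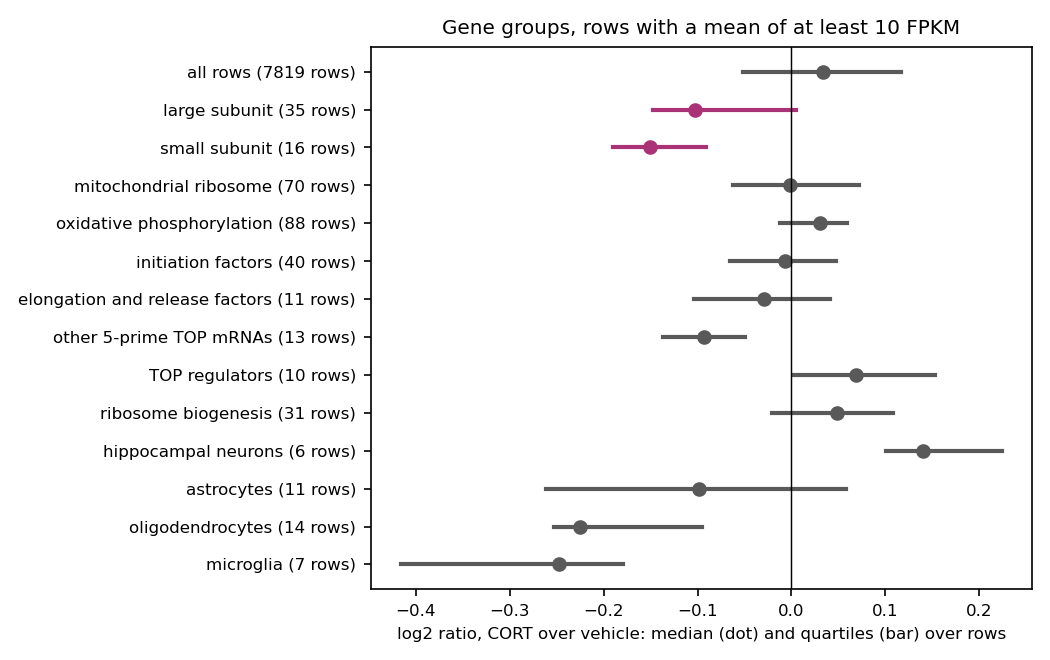
Median (dot) and quartiles (bar) of the log2 ratio of CORT over vehicle across rows with a mean of at least 10 FPKM, for all rows, the ribosomal subunits, related gene sets and cell type markers. The list of other 5′ TOP mRNAs shares genes with the initiation, elongation and biogenesis lists. The ribosomal subunits (medians -0.10 and -0.15) and the other 5′ TOP mRNAs (-0.09) lie to the left of all rows (0.03), between the neuronal (0.14) and the oligodendrocyte (-0.23) and microglial (-0.25) markers.

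Markers of several cell types also differed between the groups. Those of most glial and vascular types leaned toward lower values, while the summed value of neuronal markers was higher. In whole tissue fewer cells of a type and less RNA per cell cannot be told apart. Markers of hippocampal neurons, with rows for 7 of 8 genes, summed to 1665 FPKM in vehicle and 1810 in CORT. Of their 9 rows 3 were lower, against 45% of all rows, and 6 were higher. Most of the sum was Slc17a7 (736 and 794 FPKM) and Camk2a (593 and 667), while Neurod6 (128 and 119) and Prox1 (10.9 and 8.96) were lower. The counts of lower rows that follow also stand against 45% of all rows, and several of these sets are small. Oligodendrocyte markers (8 of 8 genes) summed to 7573 and 6219, with 12 of 14 rows lower. Microglial markers (9 of 9) summed to 294 and 254, with 10 of 11 lower, and astrocyte markers (8 of 8) to 1758 and 1262, with 10 of 16 lower. Most of the astrocyte difference was that of Gfap (970 and 517 FPKM), without which the sum was 788 and 745, with 9 of 15 rows lower. Endothelial markers (7 of 8) summed to 95.1 and 80.0, with 7 of 8 rows lower, and meningeal markers (7 of 9) to 167 and 131, with 6 of 7 lower. Choroid plexus markers (7 of 8) summed to 6765 and 6752, with 5 of 7 lower, and thalamic and habenular markers (5 of 8) to 39.2 and 28.3, with 4 of 6 lower. No marker row was at 0 in either group. The part of these differences in the ribosomal protein values was not tested.

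Genes known to respond to corticosterone were mostly higher in the group labelled CORT, 8 of 10 rows of a list of 7 genes. Of all 16266 rows, 8948 were higher. Sgk1 stood at 28.5 FPKM in vehicle and 70.4 in CORT, Per1 at 10.2 and 19.7, Tsc22d3 at 36.5 and 69.6, and Fkbp5 at 18.6 and 33.8. The 2 lower rows were both of Nr3c1, the gene of the glucocorticoid receptor. One stood at 23.2 FPKM in vehicle and 18.3 in CORT (log2 ratio -0.34), the other at 9.06 and 8.22 (-0.14). As a set, the ribosomal protein differences were small beside those given for Sgk1, Per1, Tsc22d3 and Fkbp5.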

How the data were processed

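RNA sequencing was carried out on whole hippocampi of 8 rats, 4 per group (stranded total RNA libraries, paired-end). Per the labels and the study's methods, the authors used CASAVA 1.8.2, aligned reads to rn6 with TopHat2 2.0.10, and ran Cuffdiff 2.2.0 with geometric normalization and pooled dispersion. At least 10 alignments were required, and multi-mapped reads, sequence bias and effective length were corrected for. The authors' deposited FPKM values are 1 per group and transcript. Multi-read correction divides a read among the places it fits, which bears on ribosomal protein genes with their many copies. The deposited columns with the authors' own comparison (log2 fold change, test statistic, p-value, q-value and call) were not used.

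From the FPKM values, log2 ratios of CORT over vehicle were computed without a pseudocount, for rows and for sums by symbol. No test was run. The named rows were the 5 with the highest mean, the 8 largest and 8 smallest log2 ratios at 10 FPKM or more, Rplp0, Rplp1, Rpsa, Rpl5, Rpl11, the members in the study's circadian list, symbols whose rows differed by more than 1 in log2 ratio, and the extremes of each related list at 10 FPKM or more; other members appear as examples of their role and were chosen with values in view. Some items that this rule names are not reported here. Members and lists were chosen with earlier results of these data known. Symbols were matched to RefSeq (GRCr8), and all 56 matched. The counting steps were tested on simulated data. Python 3.11.15, numpy 2.4.6, pandas 2.3.3, scipy 1.17.1 and matplotlib 3.10.9 were used.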

Additional observations from a re-analysis of the deposited data

How the results depend on the processing

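With 1 value per group and no number of reads, neither the spread between rats nor the depth behind a value is known. No paired analysis was possible because the values carry no rat number, and for the same reason no rat could be left out. The median log2 ratio of the member rows (-0.12) was negative under each of the 13 alternatives. Not all of these could have turned the sign. Keeping only symbols of known ribosomal proteins left the same 69 rows, and centring and rescaling lowered each ratio by a constant. A pseudocount adds the same amount to both groups and cannot turn the sign of a ratio. The median was -0.15 when centred on rows of at least 10 FPKM and -0.21 when each group was rescaled to the same total, an alternative chosen after seeing the data. That total is moved by 1 row of 5S rRNA (269 FPKM in vehicle and 27466 in CORT), and with the rescaling set on loci longer than 400 bp the median was -0.13. The share of rows higher in CORT (29.0%) was 17.9% for sums by symbol, 8.82% at 100 FPKM or more and 15.9% after rescaling. The 6 rows at least 1.2-fold higher became 1 for sums by symbol, 2 with the highest row of each symbol, 1 at 10 FPKM or more, 0 at 100 FPKM or more, and 3 at 1.5-fold. The 9 rows at least 1.2-fold lower became 3 at 10 FPKM or more, 1 at 100 FPKM or more, 27 at 1.1-fold, 3 at 1.5-fold and 17 after rescaling. The 100 FPKM limit was chosen after seeing the data. Among the 34 named rows, summing by symbol turned 4 that were past 1.2-fold: the higher rows of Rpl34 (-0.19), Rps24 (-0.36), Rps28 (-0.17) and Rps29 (-0.019). Why the values moved was not tested.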
